A study of Mus musculus with 12 samples.

Results

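The 33 genes described here carry out or control the synthesis of sterols and fatty acids. They were chosen by name from their place in the pathways, and all 33 were found among the 24343 genes with a unique symbol. All 33 also passed the filter on low values, which kept 11924 genes. RNA was sequenced from HT22, an immortalized cell line derived from mouse hippocampal neurons, grown in medium with serum. The 12 libraries fell into 4 groups, each with 3 biological replicates by the labels. Cells of the siControl group received a control siRNA and were kept at normal iron. Cells of the siNCOA4 group received an siRNA against Ncoa4, the receptor that carries the iron store ferritin to the lysosome, also at normal iron. The siControl+DFO and siNCOA4+DFO groups received the same siRNAs and were exposed to DFO (deferoxamine, an iron chelator) at 100 µM for 24 h. All groups were transfected with lipid carriers, and knockdown was transient and incomplete. Levels are given in FPKM, a fragment count divided by the length of the transcript and by the size of the library, so that genes of unequal length can be set beside each other. Since nothing states that replicates came from separate cultures, the p-values measure the spread between these samples, which may be partly technical.

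Animal cells make sterols from acetyl-CoA through the mevalonate pathway, squalene and a series of ring-modifying steps, and make fatty acids from the same precursor through malonyl-CoA, fatty acid synthase, elongases and desaturases. Transcription of both pathways is controlled by the sterol regulatory element-binding proteins (SREBPs): SREBP-2, encoded by Srebf2, mainly serves the sterol genes and SREBP-1, encoded by Srebf1, mainly the fatty acid genes. Several enzymes of both pathways use oxygen together with iron. Cyp51, a haem protein, and the nonhaem iron enzymes Msmo1 and Sc5d do so in the sterol pathway, and the desaturases Scd1, Scd2, Fads1 and Fads2 do so in the fatty acid pathway, while Sqle uses oxygen with a flavin. Neurons make their own sterols during development and depend on desaturases for membrane lipids.

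The treatments and the identity of the cells were checked before the genes were compared. Ncoa4 was at 6.46, 6.19 and 6.02 FPKM in the siControl libraries and at 0.770, 0.952 and 0.891 FPKM in the siNCOA4 libraries, and it was at 8.70, 8.31 and 7.52 FPKM and 0.850, 1.29 and 1.57 FPKM in the corresponding DFO groups. Tfrc, the transferrin receptor, whose transcript is stabilized at low iron, rose with DFO from 70.3 ± 2.02 to 328 ± 17.2 FPKM in cells with control siRNA (mean ± SD, n = 3). With Ncoa4 siRNA it rose from 72.0 ± 7.25 to 240 ± 20.9 FPKM. Among DFO-treated cells it was lower with Ncoa4 siRNA (log2 fold change -0.45 ± 0.09 SE, limma, adjusted p = 0.00495). The difference between its DFO effects was -0.48 ± 0.12 and did not pass (limma, adjusted p = 0.0649). Of 14 neuron markers, 3 (Tubb3, Eno2 and Dlg4) were at 1 FPKM or more in all 12 libraries and the other 11, among them Map2, Rbfox3 and Snap25, stayed below 1 FPKM in all, so the neuronal label was not borne out by its defining markers. Of 6 fibroblast and mesenchymal markers, 6 were at 1 FPKM or more in all libraries. Their summed level, most of it Col1a1 and Col1a2, was 1320 to 1614 FPKM in siControl, 753 to 954 FPKM in siNCOA4, 358 to 477 FPKM in siControl+DFO and 406 to 496 FPKM in siNCOA4+DFO. It was thus lower with DFO and, at normal iron, with Ncoa4 siRNA, while the DFO groups overlapped. Thy1 was not lower with Ncoa4 siRNA at normal iron (means of 12.5 FPKM in siControl and 12.7 FPKM in siNCOA4). The summed level of 5 astrocyte markers was 36.4 to 46.0 FPKM in siControl and 22.5 to 27.0 FPKM in siNCOA4. It was 3.18 to 5.42 FPKM in siControl+DFO and 6.95 to 15.1 FPKM in siNCOA4+DFO. This lower sum was due to Slc1a3 alone, with means of 42.1, 24.0, 3.59 and 7.13 FPKM in that order. Aldh1l1 and Gfap, both far lower than Slc1a3 in siControl, went the other way. Their means were lowest in siControl and highest in siNCOA4+DFO, where Slc1a3 made up less of the sum. The part that such shifts play in the results was not tested, and in bulk RNA a change in which cells are present cannot be told apart from a change in RNA per cell. Relative depth, read from the smallest steps between low FPKM values, ranged from 0.928 to 1.41 over the libraries with siControl replicate 1 set to 1. It was 1 to 1.25 in siControl, 1.26 to 1.41 in siNCOA4, 1.06 to 1.25 in siControl+DFO and 0.928 to 1.20 in siNCOA4+DFO. The siNCOA4 libraries thus lay above all others, and the part that depth plays was not tested.

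In siControl cells the mean levels of the 33 genes ran from 3.81 ± 0.776 FPKM for Tm7sf2, a sterol C14-reductase, to 465 ± 38.4 FPKM for Scd2, the main stearoyl-CoA desaturase of brain (mean ± SD, n = 3). Scd2 stood well above the next gene, Fdps, the farnesyl diphosphate synthase, which was at 183 ± 18.3 FPKM. Sqle (134 ± 5.71), Hmgcs1 (120.1 ± 6.05) and Acly (113 ± 3.03 FPKM) followed. Fads1, Msmo1, Fads2 and Cyp51 held the next places with 99.3 ± 8.39, 99.1 ± 3.44, 96.5 ± 5.74 and 95.3 ± 2.80 FPKM, and neighbours in this row differed by less than their SDs. The lowest levels after Tm7sf2 were those of Acss2 (6.23 ± 0.450), Hsd17b7 (7.69 ± 0.738) and Dhcr7 (10.9 ± 1.40 FPKM). Scd2 exceeded its relative Scd1 by 6.60 to 8.37 times in each of the 12 libraries. With DFO the order changed: Elovl6 moved from rank 21 to rank 29 of the 33 and Fasn from rank 11 to rank 15, while Msmo1 moved from rank 7 to rank 3 and Cyp51 from rank 9 to rank 4.

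**Figure D1:**
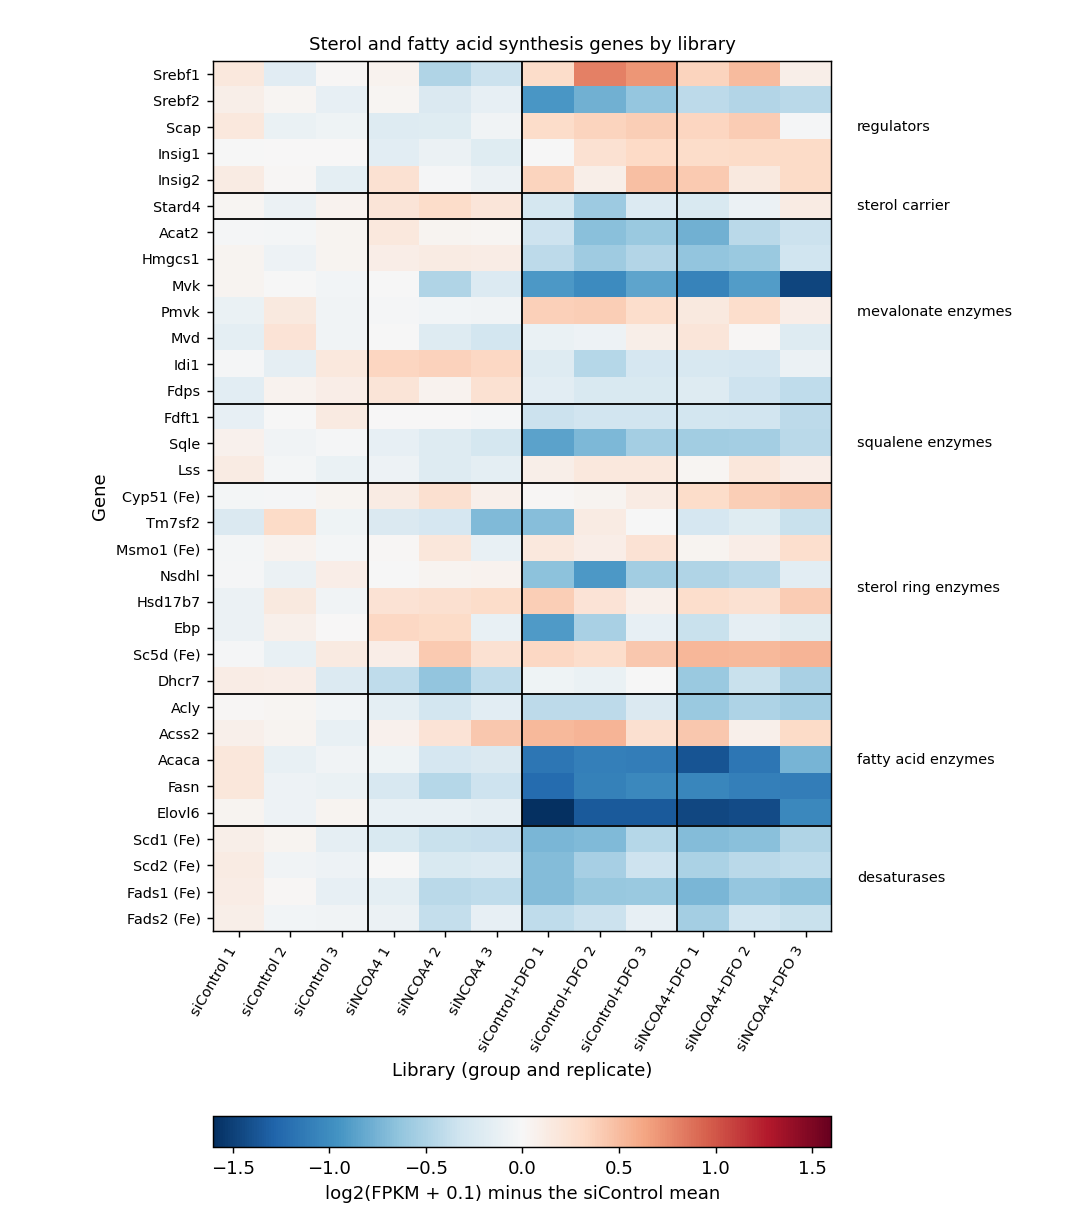
Heat map of log2(FPKM + 0.1) minus the siControl mean for the 33 genes (rows, grouped by role; Fe marks the iron-dependent enzymes) in the 12 libraries (columns). Elovl6, Fasn, Acaca and Mvk are the darkest blue rows on average over the DFO libraries, and Cyp51, Msmo1 and Sc5d stay at or above the siControl mean there.

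The sterol genes share short promoter motifs, and the promoters of 6 genes that differed in their response are shown because the genes that moved together did not share these motifs evenly. They are the early mevalonate enzymes Hmgcs1 and Mvk and the fatty acid enzymes Fasn and Elovl6, which fell with DFO as given below, and the iron-dependent sterol enzymes Cyp51 and Msmo1, which did not fall. Each line gives the 250 bases before the transcript start, 5′ to 3′ on the strand of the gene, from RefSeq on GRCm38.p6. Capitals mark CCAAT or its reverse complement ATTGG, and in Hmgcs1 also TCACCCCAC.
Hmgcs1 (chr13:119690101-119690350, plus strand): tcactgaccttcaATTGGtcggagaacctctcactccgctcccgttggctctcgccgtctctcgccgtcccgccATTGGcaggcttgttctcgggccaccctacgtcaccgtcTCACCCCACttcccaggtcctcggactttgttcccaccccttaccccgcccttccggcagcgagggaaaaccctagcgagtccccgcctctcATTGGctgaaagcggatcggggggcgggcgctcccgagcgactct
Mvk (chr5:114444019-114444268, plus strand): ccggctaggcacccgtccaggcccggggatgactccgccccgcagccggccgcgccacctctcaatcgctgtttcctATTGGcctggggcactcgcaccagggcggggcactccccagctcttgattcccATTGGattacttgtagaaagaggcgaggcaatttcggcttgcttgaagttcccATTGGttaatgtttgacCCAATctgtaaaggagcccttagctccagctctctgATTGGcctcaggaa
Cyp51 (chr5:4104698-4104947, minus strand): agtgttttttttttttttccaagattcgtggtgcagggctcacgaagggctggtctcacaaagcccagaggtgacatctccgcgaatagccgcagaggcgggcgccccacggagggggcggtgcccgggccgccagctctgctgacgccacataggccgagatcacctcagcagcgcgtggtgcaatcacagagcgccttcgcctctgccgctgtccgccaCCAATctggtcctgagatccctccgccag
Msmo1 (chr8:64733579-64733828, minus strand): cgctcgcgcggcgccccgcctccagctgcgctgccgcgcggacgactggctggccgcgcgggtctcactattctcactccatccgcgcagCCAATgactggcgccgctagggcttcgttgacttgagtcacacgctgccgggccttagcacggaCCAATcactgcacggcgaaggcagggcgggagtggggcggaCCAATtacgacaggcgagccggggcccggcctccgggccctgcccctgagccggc
Fasn (chr11:120824548-120824797, minus strand): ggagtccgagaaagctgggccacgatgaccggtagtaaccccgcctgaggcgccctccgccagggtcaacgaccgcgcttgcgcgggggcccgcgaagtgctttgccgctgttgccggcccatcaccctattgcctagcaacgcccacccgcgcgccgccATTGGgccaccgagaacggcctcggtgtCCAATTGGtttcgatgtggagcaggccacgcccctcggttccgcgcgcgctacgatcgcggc
Elovl6 (chr3:129532136-129532385, plus strand): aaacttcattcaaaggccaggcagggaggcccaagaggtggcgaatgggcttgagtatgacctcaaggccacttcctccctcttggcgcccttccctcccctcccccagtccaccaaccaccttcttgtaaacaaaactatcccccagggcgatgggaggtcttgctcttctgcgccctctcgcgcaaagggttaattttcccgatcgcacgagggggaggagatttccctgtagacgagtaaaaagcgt
RefSeq promoters were matched for 26 of the 33 genes, leaving out Stard4, Fdps, Fdft1, Sqle, Scd1, Scd2 and Fads1. CCAAT, the letters read by the trimeric factor NF-Y, was found on either strand in 20 of the 26 (76.9%) and in 37.5% of 27025 genes, with promoters of the same length. A gene was counted as holding a motif if any of its listed starts did. The 27025 are all genes with a listed promoter, expressed in these cells or not, whereas the 33 all passed the filter on low values. The shares of this and the other motifs thus come from unlike sets and cannot establish enrichment, which was not tested. Mvk held 5 such matches, Hmgcs1, Msmo1 and Fasn 3 each (in Fasn a pair overlapped), Cyp51 1 and Elovl6 0. By branch, 14 of 15 sterol enzymes held CCAAT (Acat2 did not), against 2 of 6 fatty acid and desaturase enzymes (Acss2 and Fasn). By response, 7 of the 12 matched genes that fell with DFO held it, and 13 of the 14 that did not fall. These counts cannot be compared directly. Srebf1, Scap, Insig2, Pmvk and Dhcr7, none of which fell, have 2 or 3 listed starts, and each matched gene that fell has 1. Branch also enters, since Acly, Acaca, Elovl6 and Fads2 are most of the fallen genes without CCAAT. Most genes without a matched promoter also fell. The classical sterol regulatory element, TCACNCCAC, was found in Hmgcs1 alone of the 26 (3.85%) and in 1.22% of all promoters. GGGCGG, the letters read by Sp1, occurred in 22 of 26 (84.6%, against 35.4% of all promoters). CACGTG occurred in 5 of 26 (19.2% against 6.86%), and its inner part ACGTG, the core of the hypoxia response element, in 6 of 26 (23.1% against 18.5%). A match is a description of the letters in this window and no evidence of binding.

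The first comparison asked what iron chelation did to these genes in cells with control siRNA. With DFO 18 of the 33 genes fell, 5 rose and 10 did not pass the test (limma, Benjamini-Hochberg adjusted p below 0.05 over all 11924 genes). Of the 9 fatty acid and desaturase enzymes 8 fell and 1 rose, and of the 18 sterol enzymes 8 fell, 2 rose and 8 did not pass. Over all genes tested, 53.4% passed, 25.7% lower and 27.7% higher, so calls were common everywhere and the share of falls among the 33 is to be read against that level. The median log2 fold change was -0.31 over the 33 genes and -0.01 over all genes. The falls were deepest in fatty acid synthesis, where the median of 5 enzymes was -1.11, followed by the 4 desaturases with -0.57. The 7 mevalonate enzymes (-0.31) and the 3 squalene enzymes (-0.32) had smaller medians, the 8 sterol ring enzymes were centred on 0.00 and the 5 regulators on 0.31. Only 3 genes, Elovl6, Fasn and Acaca, passed with a change of more than 2-fold as well, all lower, against 7.76% of all genes lower by that rule.

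Transcripts of 4 of the 5 fatty acid enzymes fell, most of all those of Elovl6, Fasn and Acaca. Elovl6, the elongase that lengthens palmitate, was at 29.8, 27.3 and 29.7 FPKM in siControl and at 9.50, 11.3 and 11.3 FPKM in siControl+DFO, 2.69-fold lower (log2 fold change -1.43 ± 0.12 SE, adjusted p = 9.12e-07). Fasn, the fatty acid synthase, was at 84.1, 70.5 and 69.3 FPKM in siControl and at 31.6, 35.1 and 36.3 FPKM in siControl+DFO, 2.17-fold lower (log2 fold change -1.12 ± 0.09 SE, adjusted p = 7.67e-07). Acaca, the acetyl-CoA carboxylase that makes malonyl-CoA, was at 38.0, 30.9 and 32.3 FPKM in siControl and at 15.1, 15.7 and 15.6 FPKM in siControl+DFO, 2.16-fold lower (log2 fold change -1.11 ± 0.14 SE, adjusted p = 3.08e-05). In each of these genes all 3 DFO libraries lay below all 3 siControl libraries. Acly, which cleaves citrate into acetyl-CoA, fell less, from 113 ± 3.03 to 88.2 ± 6.45 FPKM (-0.36 ± 0.07, adjusted p = 0.00102). Acss2, which makes acetyl-CoA from acetate, went the other way and rose from 6.23 ± 0.450 to 8.48 ± 0.906 FPKM (0.44 ± 0.14, adjusted p = 0.0198). The summed level of the 5 enzymes was 246 to 273 FPKM in the siControl libraries and 149 to 166 FPKM in the siControl+DFO libraries, without overlap.

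All 4 desaturases fell. Scd2, which makes monounsaturated fatty acids, was at 509, 448 and 438 FPKM in siControl and at 287, 321 and 369 FPKM in siControl+DFO, 1.43-fold lower (log2 fold change -0.52 ± 0.11 SE, adjusted p = 0.00131). Scd1, with the same activity, was at 69.9, 67.9 and 59.5 FPKM in siControl and at 39.3, 40.2 and 47.8 FPKM in siControl+DFO, 1.55-fold lower (log2 fold change -0.63 ± 0.10 SE, adjusted p = 0.000142). Fads1, the delta-5 desaturase of polyunsaturated fatty acids, was at 107, 100.1 and 90.6 FPKM in siControl and at 61.4, 65.1 and 65.5 FPKM in siControl+DFO, 1.55-fold lower (log2 fold change -0.63 ± 0.09 SE, adjusted p = 6.49e-05). These groups did not overlap. Fads2, the delta-6 desaturase, fell least, from 96.5 ± 5.74 to 78.8 ± 8.16 FPKM (-0.29 ± 0.10, adjusted p = 0.0269). The summed level of the desaturases went from 681 to 789 FPKM in siControl to 460 to 570 FPKM in siControl+DFO. The ratio of Scd2 to Scd1 was 6.60 to 7.36 in the siControl libraries and 7.29 to 7.99 in the siControl+DFO libraries, ranges that overlapped.

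In the early sterol pathway neighbouring enzymes moved in different directions. Mvk, the mevalonate kinase, was at 43.9, 42.6 and 41.5 FPKM in siControl and at 22.5, 21.3 and 23.6 FPKM in siControl+DFO, 1.90-fold lower (log2 fold change -0.92 ± 0.14 SE, adjusted p = 0.000165). Hmgcs1, the HMG-CoA synthase at the entry to the mevalonate pathway, was at 123, 113 and 124 FPKM in siControl and at 89.9, 80.7 and 86.4 FPKM in siControl+DFO, 1.40-fold lower (log2 fold change -0.49 ± 0.08 SE, adjusted p = 0.0004). Acat2, the cytosolic acetoacetyl-CoA thiolase, fell from 43.6 ± 1.08 to 30.3 ± 3.73 FPKM (-0.53 ± 0.11, adjusted p = 0.00171). Idi1, the isopentenyl diphosphate isomerase, fell from 23.5 ± 2.55 to 18.9 ± 1.67 FPKM (-0.31 ± 0.10, adjusted p = 0.0161). The enzyme after Mvk, the phosphomevalonate kinase Pmvk, rose instead: it was at 46.7, 55.8 and 48.4 FPKM in siControl and at 65.4, 65.7 and 60.8 FPKM in siControl+DFO (0.35 ± 0.08, adjusted p = 0.00265). Mvd, the decarboxylase that follows, had 18.8 ± 2.58 and 18.3 ± 1.40 FPKM and Fdps 183 ± 18.3 and 157 ± 4.84 FPKM, and neither passed the test (adjusted p = 0.852 and 0.0584).

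Of the squalene enzymes, Sqle, the squalene epoxidase that uses oxygen and a flavin, was at 140.2, 129 and 133 FPKM in siControl and at 74.0, 81.4 and 91.5 FPKM in siControl+DFO, 1.63-fold lower (log2 fold change -0.71 ± 0.08 SE, adjusted p = 1.79e-05). Fdft1, the squalene synthase, fell from 26.5 ± 2.58 to 21.1 ± 0.324 FPKM (-0.32 ± 0.08, adjusted p = 0.00499). Lss, which folds the epoxide into lanosterol, had 23.9 ± 2.02 and 26.3 ± 0.727 FPKM and did not pass (adjusted p = 0.156). Among the ring enzymes, Nsdhl, the sterol dehydrogenase that works after Msmo1, was at 44.3, 42.2 and 48.4 FPKM in siControl and at 28.4, 23.8 and 30.4 FPKM in siControl+DFO, 1.64-fold lower (log2 fold change -0.71 ± 0.11 SE, adjusted p = 0.000118). Ebp, the sterol isomerase, was at 23.5, 26.5 and 25.2 FPKM in siControl and at 13.3, 17.4 and 23.0 FPKM in siControl+DFO (-0.52 ± 0.17, adjusted p = 0.0237). Its DFO libraries spread widely, and replicate 3 lay just below the lowest siControl library. Hsd17b7 (7.69 ± 0.738 and 9.03 ± 1.00 FPKM), Tm7sf2 (3.81 ± 0.776 and 3.40 ± 0.958 FPKM) and Dhcr7, which makes cholesterol in the last step of its branch (10.9 ± 1.40 and 10.4 ± 0.358 FPKM), did not pass. Stard4, a carrier that moves sterols between membranes, fell from 30.6 ± 1.65 to 24.0 ± 3.14 FPKM (-0.36 ± 0.11, adjusted p = 0.0169).

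The 3 iron-dependent sterol enzymes did not fall. Cyp51, the lanosterol demethylase, was at 93.0, 94.4 and 98.4 FPKM in siControl and at 96.3, 97.9 and 104 FPKM in siControl+DFO (0.06 ± 0.07, adjusted p = 0.472). Msmo1, the sterol C4-methyl oxidase, was at 97.1, 103 and 97.1 FPKM and 111, 106 and 116 FPKM (0.17 ± 0.09, adjusted p = 0.121). Neither passed the test, although the DFO libraries of Msmo1 all lay above the siControl libraries. Sc5d, the sterol C5-desaturase, was at 37.9, 35.3 and 42.5 FPKM in siControl and at 48.5, 46.9 and 52.0 FPKM in siControl+DFO, 1.28-fold higher (log2 fold change 0.35 ± 0.09 SE, adjusted p = 0.00617). The DFO and siControl libraries of Sc5d did not overlap, so of these 3 genes Sc5d alone rose.

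The regulators split. Srebf2, the gene of SREBP-2, was at 89.4, 85.8 and 76.6 FPKM in siControl and at 43.7, 49.2 and 54.4 FPKM in siControl+DFO, 1.71-fold lower (log2 fold change -0.78 ± 0.10 SE, adjusted p = 2.68e-05). Srebf1, the gene of SREBP-1, was at 14.3, 11.3 and 12.9 FPKM in siControl and at 15.7, 22.5 and 20.9 FPKM in siControl+DFO, 1.52-fold higher (log2 fold change 0.60 ± 0.17 SE, adjusted p = 0.011). The Srebf2 to Srebf1 ratio was 5.94 to 7.60 in the siControl libraries and 2.19 to 2.79 in the siControl+DFO libraries. Scap, which escorts SREBPs out of the endoplasmic reticulum, rose from 12.4 ± 1.32 to 15.8 ± 0.575 FPKM (0.35 ± 0.12, adjusted p = 0.0286). Insig1 and Insig2, which hold Scap back when sterols are plentiful, had log2 fold changes of 0.19 ± 0.08 and 0.31 ± 0.13 and did not pass (adjusted p = 0.0643 and 0.0584). Transcript levels of Srebf1 and Srebf2 say nothing of how much SREBP was cleaved and nuclear.

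Of the 23 calls with DFO, 17 held whichever library was left out and under every alternative processing. The other 6 were lost when 1 library was removed: Scap without siControl replicate 2 or 3 or siControl+DFO replicate 2 or 3 (adjusted p 0.0645 to 0.0977), Stard4 without siControl replicate 3 or siControl+DFO replicate 2 (adjusted p 0.0557 to 0.0788), Idi1 without siControl replicate 3 or siControl+DFO replicate 2 (adjusted p 0.0728 to 0.0765), Ebp without siControl replicate 2 or 3 or siControl+DFO replicate 1 or 2 (adjusted p 0.0547 to 0.104), Acss2 without siControl replicate 3 or siControl+DFO replicate 1 or 2 (adjusted p 0.0633 to 0.0714) and Fads2 without siControl replicate 1 or siControl+DFO replicate 1 or 2 (adjusted p 0.0811 to 0.0997).

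**Figure D2:**
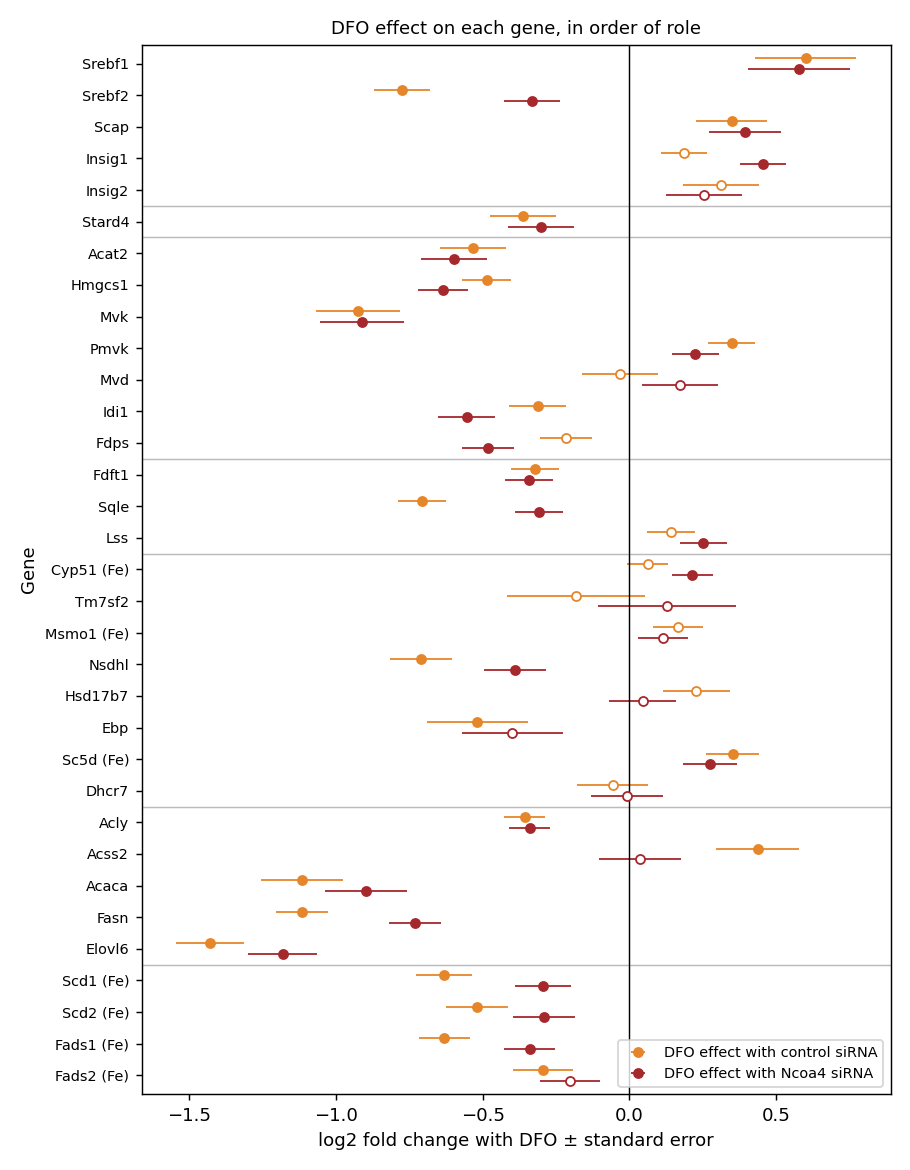
Log2 fold change with DFO (x axis, ± SE) of each gene (y axis, grouped by role) in cells with control siRNA (orange) and with Ncoa4 siRNA (red), where filled points passed at an adjusted p below 0.05 and open points did not. Elovl6, Fasn, Acaca and Mvk lie farthest to the left in both colours, and Srebf1 farthest to the right.

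The second comparison asked for the same DFO effect in cells with Ncoa4 siRNA. It used no library of the first comparison, although all 12 libraries shared the estimate of the spread. Of the 33 genes, 17 fell and 7 rose, where 42.7% of all genes passed, 19.6% lower and 23.1% higher, and 1 gene, Elovl6, changed by more than 2-fold as well (3.83% of all genes were lower by that rule). The median over the 33 was -0.29, and over all genes -0.00. Fatty acid synthesis again had the lowest median (-0.73), followed here by the mevalonate enzymes (-0.55), and the desaturases had -0.29. Genes that passed in the same direction with either siRNA numbered 16 that fell (Srebf2, Stard4, Acat2, Hmgcs1, Mvk, Idi1, Fdft1, Sqle, Nsdhl, Acly, Acaca, Fasn, Elovl6, Scd1, Scd2 and Fads1) and 4 that rose (Srebf1, Scap, Pmvk and Sc5d). None passed in opposite directions, and Insig2, Mvd, Tm7sf2, Msmo1, Hsd17b7 and Dhcr7 passed with neither siRNA.

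Elovl6, the elongase, was at 26.7, 26.6 and 26.1 FPKM in siNCOA4 and at 10.4, 10.6 and 14.1 FPKM in siNCOA4+DFO, 2.27-fold lower (log2 fold change -1.18 ± 0.12 SE, adjusted p = 8.36e-06). Fasn, the synthase, was at 62.2, 54.0 and 58.8 FPKM in siNCOA4 and at 36.0, 34.9 and 34.4 FPKM in siNCOA4+DFO, 1.66-fold lower (log2 fold change -0.73 ± 0.09 SE, adjusted p = 4.24e-05). Acaca went from 29.4 ± 2.17 to 16.0 ± 3.70 FPKM (-0.90 ± 0.14, adjusted p = 0.000266), with its siNCOA4+DFO libraries spread over 12.9, 15.0 and 20.1 FPKM. The DFO libraries of these 3 genes lay below all siNCOA4 libraries. Mvk, the kinase, was at 42.7, 30.5 and 36.6 FPKM in siNCOA4 and at 20.2, 23.0 and 15.3 FPKM in siNCOA4+DFO, 1.88-fold lower (log2 fold change -0.91 ± 0.14 SE, adjusted p = 0.000285). Hmgcs1, the synthase, was at 129.5, 131 and 130.2 FPKM in siNCOA4 and at 77.6, 79.6 and 95.8 FPKM in siNCOA4+DFO, 1.55-fold lower (log2 fold change -0.63 ± 0.08 SE, adjusted p = 7.98e-05). Both groups of Mvk were spread more widely than in cells with control siRNA, yet did not overlap. Insig1, which had not passed with control siRNA, was at 54.2, 56.9 and 53.2 FPKM in siNCOA4 and at 74.6, 75.4 and 75.4 FPKM in siNCOA4+DFO (0.46 ± 0.08, adjusted p = 0.000598). Fdps fell here from 205 ± 14.3 to 147 ± 10.6 FPKM (-0.48 ± 0.09, adjusted p = 0.000924), and Cyp51 rose from 106 ± 6.32 to 123 ± 6.15 FPKM (0.22 ± 0.07, adjusted p = 0.024). Lss also rose, by 0.25 ± 0.08 on the log2 scale (adjusted p = 0.0234). Ebp, Acss2 and Fads2, which had passed with control siRNA, had -0.40 ± 0.17, 0.04 ± 0.14 and -0.20 ± 0.10 here and did not pass. The Srebf2 to Srebf1 ratio was 6.48 to 7.81 in siNCOA4 and 3.33 to 4.54 in siNCOA4+DFO.

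Of these 24 calls, 14 held under every alternative and every removal of a library, and without siNCOA4+DFO replicate 2 only 15 genes passed. The 10 calls lost on removal of 1 library were Srebf1 without siNCOA4 replicate 2 or 3 or siNCOA4+DFO replicate 2 (adjusted p 0.0568 to 0.0718), Srebf2 without siNCOA4 replicate 1 (adjusted p = 0.0663), Scap without siNCOA4 replicate 1 or 2 or siNCOA4+DFO replicate 1 or 2 (adjusted p 0.0582 to 0.0847), Stard4 without siControl replicate 1 or 2 or 3 or siNCOA4 replicate 1 or 2 or 3 or siControl+DFO replicate 1 or siNCOA4+DFO replicate 1 or 2 (adjusted p 0.0549 to 0.183), Pmvk without siNCOA4 replicate 1 or 2 or 3 or siNCOA4+DFO replicate 1 or 2 (adjusted p 0.0633 to 0.137), Lss without siNCOA4 replicate 2 or 3 or siNCOA4+DFO replicate 2 (adjusted p 0.0625 to 0.0873), Cyp51 without siNCOA4 replicate 1 or 3 or siNCOA4+DFO replicate 2 or 3 (adjusted p 0.0621 to 0.0967), Sc5d without siNCOA4 replicate 1 or 3 or siNCOA4+DFO replicate 1 or 2 or 3 (adjusted p 0.0549 to 0.122), Scd1 without siNCOA4 replicate 1 or siNCOA4+DFO replicate 1 or 2 (adjusted p 0.0826 to 0.0911) and Scd2 without siControl replicate 2 or siNCOA4 replicate 1 or 3 or siControl+DFO replicate 2 or siNCOA4+DFO replicate 1 or 2 or 3 (adjusted p 0.0532 to 0.160).

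Whether the DFO effect differed between the siRNAs was tested itself, as the interaction. None of the 33 genes passed (limma, lowest adjusted p = 0.0973), whereas 2.1% of all genes did. Unadjusted p-values below 0.05 were found in 6 of the 33, and in 18.2% of all genes. These 6 were Srebf2 (interaction on the log2 scale 0.44 ± 0.13, adjusted p = 0.106), Sqle (0.40 ± 0.12, 0.0973), Fasn (0.39 ± 0.13, 0.128), Scd1 (0.34 ± 0.14, 0.209), Fads1 (0.29 ± 0.12, 0.233) and Insig1 (0.27 ± 0.11, 0.228). The estimate was positive in all 6, that is, a smaller fall or a larger rise with Ncoa4 siRNA. The share of such genes among the 33 was that of all genes, so no pattern is read from these 6. Over the 33 genes the estimates ran from -0.40 to 0.44, with a median of 0.06. For Srebf2 the siNCOA4+DFO libraries, at 62.5, 60.4 and 61.9 FPKM, lay above the siControl+DFO libraries given above and below the siNCOA4 libraries, at 85.8, 71.1 and 76.3 FPKM. The result does not show that the effects were equal.

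The next comparison asked what Ncoa4 siRNA did on its own, at normal iron. Of the 33 genes 4 fell and 1 rose, 5 in all (15.2%), a share near the 11.7% of all genes (7.21% lower and 4.52% higher). An unadjusted p below 0.05 was found in 10 of the 33, against 26.2% of all genes. This comparison shares the siControl libraries with that of DFO. Dhcr7, the reductase, was at 11.7, 11.7 and 9.31 FPKM in siControl and at 8.14, 6.98 and 8.16 FPKM in siNCOA4, 1.40-fold lower (log2 fold change -0.48 ± 0.12 SE, adjusted p = 0.0243). Fasn, the synthase, was at 84.1, 70.5 and 69.3 FPKM in siControl and at 62.2, 54.0 and 58.8 FPKM in siNCOA4, 1.27-fold lower (log2 fold change -0.35 ± 0.09 SE, adjusted p = 0.0253). The groups of both genes did not overlap. Fads1 went from 99.3 ± 8.39 to 79.0 ± 8.36 FPKM (-0.33 ± 0.09, adjusted p = 0.0285) and Scd1 from 65.7 ± 5.51 to 52.4 ± 2.43 FPKM (-0.32 ± 0.10, adjusted p = 0.0485). Idi1, the isomerase, was at 23.1, 21.2 and 26.3 FPKM in siControl and at 29.8, 30.3 and 29.5 FPKM in siNCOA4, 1.27-fold higher (log2 fold change 0.35 ± 0.10 SE, adjusted p = 0.0365). None of the 33 passed with a change of more than 2-fold as well, against 1.78% of all genes. The median was -0.13 over the 33 genes, -0.20 over the 9 fatty acid and desaturase enzymes and 0.03 over the 18 sterol enzymes. No call held under every alternative and removal of a library: those lost on removal were Idi1 without siControl replicate 1 or 2 or siNCOA4 replicate 1 or 2 or 3 or siControl+DFO replicate 3 (adjusted p 0.0505 to 0.129), Dhcr7 without siControl replicate 1 or 2 or siNCOA4 replicate 2 (adjusted p 0.0815 to 0.0986), Fasn without siControl replicate 1 or siNCOA4 replicate 2 or 3 (adjusted p 0.0673 to 0.104), Fads1 without siControl replicate 1 or 2 or siNCOA4 replicate 2 or 3 (adjusted p 0.0785 to 0.112) and Scd1 without siControl replicate 1 or 2 or siNCOA4 replicate 1 or 2 or 3 or siControl+DFO replicate 1 or 2 or siNCOA4+DFO replicate 1 or 2 (adjusted p 0.0522 to 0.145).

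Within DFO-treated cells, Ncoa4 siRNA raised 3 genes and lowered 1, where 16.5% of all genes passed, 6.22% higher and 10.2% lower. None of the 33 passed with a change of more than 2-fold as well, against 2.09% of all genes. In total 7 of the 33 had an unadjusted p below 0.05, against 32.2% of all genes. Cyp51, the demethylase, was at 96.3, 97.9 and 104 FPKM in siControl+DFO and at 116, 126 and 128 FPKM in siNCOA4+DFO, 1.24-fold higher (log2 fold change 0.31 ± 0.07 SE, adjusted p = 0.0104). Of the 4 calls, this one held under every alternative and removal of a library. Srebf2 was higher with Ncoa4 siRNA by 0.33 ± 0.10 (adjusted p = 0.0346) and Nsdhl by 0.35 ± 0.11 (adjusted p = 0.041), both genes that DFO lowered. Dhcr7, which was also lower with this siRNA at normal iron, was at 10.4, 10.1 and 10.8 FPKM in siControl+DFO and at 7.16, 8.46 and 7.52 FPKM in siNCOA4+DFO, 1.35-fold lower (log2 fold change -0.43 ± 0.12 SE, adjusted p = 0.0309). The calls lost on removal were Srebf2 without siControl+DFO replicate 1 or 2 or siNCOA4+DFO replicate 1 or 2 or 3 (adjusted p 0.0636 to 0.122), Nsdhl without siControl replicate 2 or siNCOA4 replicate 1 or 2 or 3 or siControl+DFO replicate 1 or 2 or siNCOA4+DFO replicate 2 or 3 (adjusted p 0.0506 to 0.148) and Dhcr7 without siControl+DFO replicate 1 or 2 or 3 or siNCOA4+DFO replicate 1 or 3 (adjusted p 0.0658 to 0.0837). With quantile scaling the share of higher genes among all calls in this comparison was 50.6%, against 37.8% without it, and 7 of the 33 genes passed.

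**Figure D3:**
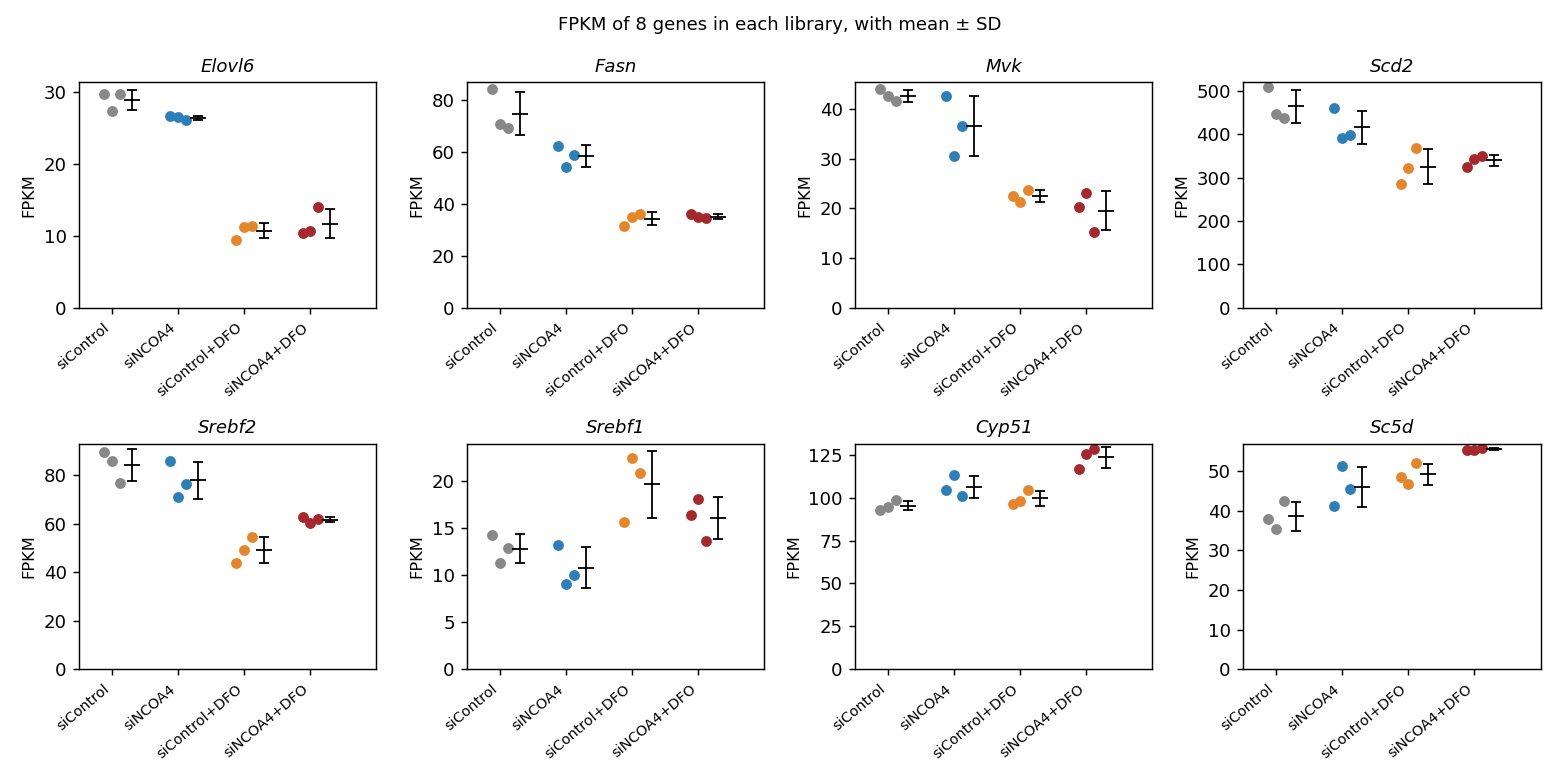
FPKM (y axis, linear from 0) of Elovl6, Fasn, Mvk, Scd2, Srebf2, Srebf1, Cyp51 and Sc5d in each library of the 4 groups (x axis), with the mean ± SD of 3 libraries beside the points. The DFO libraries of Elovl6, Fasn, Mvk and Srebf2 lie below the libraries without DFO, Srebf1 is higher with DFO for either siRNA, and Cyp51 is highest in siNCOA4+DFO.

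Cells with both treatments were also set against siControl, whose libraries are shared with the comparisons above. The paper reports altered morphology and lower viability of HT22 cells under this combination, and no effect of either treatment alone on viability. What part this plays in the values was not tested. In this comparison 17 genes fell and 4 rose, where 48.8% of all genes passed, 23.4% lower and 25.4% higher, and 4 fell by more than 2-fold (5.93% of all genes were lower by that rule). These were Elovl6 (-1.31 ± 0.12), Mvk (-1.14 ± 0.14), Acaca (-1.09 ± 0.14) and Fasn (-1.08 ± 0.09), with adjusted p = 2.6e-06, 3.61e-05, 4.36e-05 and 1.43e-06. The 4 that rose were Sc5d, from 38.6 ± 3.66 to 55.5 ± 0.293 FPKM (0.53 ± 0.09, adjusted p = 0.000434), Cyp51, from 95.3 ± 2.80 to 123 ± 6.15 FPKM (0.37 ± 0.07, adjusted p = 0.000733), Insig1 (0.30 ± 0.08, adjusted p = 0.00735) and Hsd17b7 (0.31 ± 0.11, adjusted p = 0.0405). Of the 8 sterol ring enzymes 3 rose, 2 fell (Nsdhl and Dhcr7) and 3 did not pass, and all 4 desaturases fell. Calls lost on removal of a library were Fdps without siControl replicate 3 (adjusted p = 0.0517), Nsdhl without siControl replicate 3 or siNCOA4+DFO replicate 1 (adjusted p 0.0549 to 0.0553) and Hsd17b7 without siControl replicate 1 or 3 or siNCOA4 replicate 1 or 2 or 3 or siControl+DFO replicate 2 or siNCOA4+DFO replicate 1 or 2 or 3 (adjusted p 0.0518 to 0.113), and Scd2 lost its call with quantile scaling.

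The iron-dependent enzymes were set against the other enzymes of the pathways as a description, with no test. With DFO in control siRNA cells, 4 of the 7 iron-dependent enzymes fell and 1 rose, and 12 of the 20 others fell and 2 rose. Their median log2 fold changes were -0.29 and -0.34, a difference of 0.0439, and the SD of that difference between libraries of a group was 0.0743. Over all enzymes together the classes therefore differed by less than this SD in control siRNA cells. Within each branch the iron-dependent median lay above the other median by 0.478 in the sterol branch (0.17 over 3 genes against -0.31 over 15) and by 0.540 in the fatty acid branch (-0.57 over 4 genes against -1.11 over 5). The SD between libraries was 0.0648 and 0.0906, which does not measure the spread between genes. Single genes of both classes overlapped. In the sterol branch the iron-dependent enzymes ran from 0.06 to 0.35 and the others from -0.92 to 0.35. In the fatty acid branch these ranges were -0.63 to -0.29 and -1.43 to 0.44. With Ncoa4 siRNA the difference between the medians over all enzymes was 0.163, above the SD of 0.0743 between libraries. It was 0.557 in the sterol branch and 0.437 in the fatty acid branch. The sterol branch holds 3 of the 7 iron-dependent enzymes and 15 of the 20 others, so the branches weigh differently in each class. Counting Sqle, which uses oxygen but no iron, with the iron-dependent enzymes changed the difference over all enzymes from 0.0439 to -0.0850. Some single genes departed from the medians of their class. Pmvk and Acss2 rose with DFO, as did Lss in cells with Ncoa4 siRNA, and their enzymes use no iron. Across branches, the iron-dependent desaturases Scd1 and Fads1 fell about as far as the sterol enzymes Sqle and Nsdhl. Their log2 fold changes were -0.63 and -0.63 against -0.71 and -0.71.

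**Figure D4:**
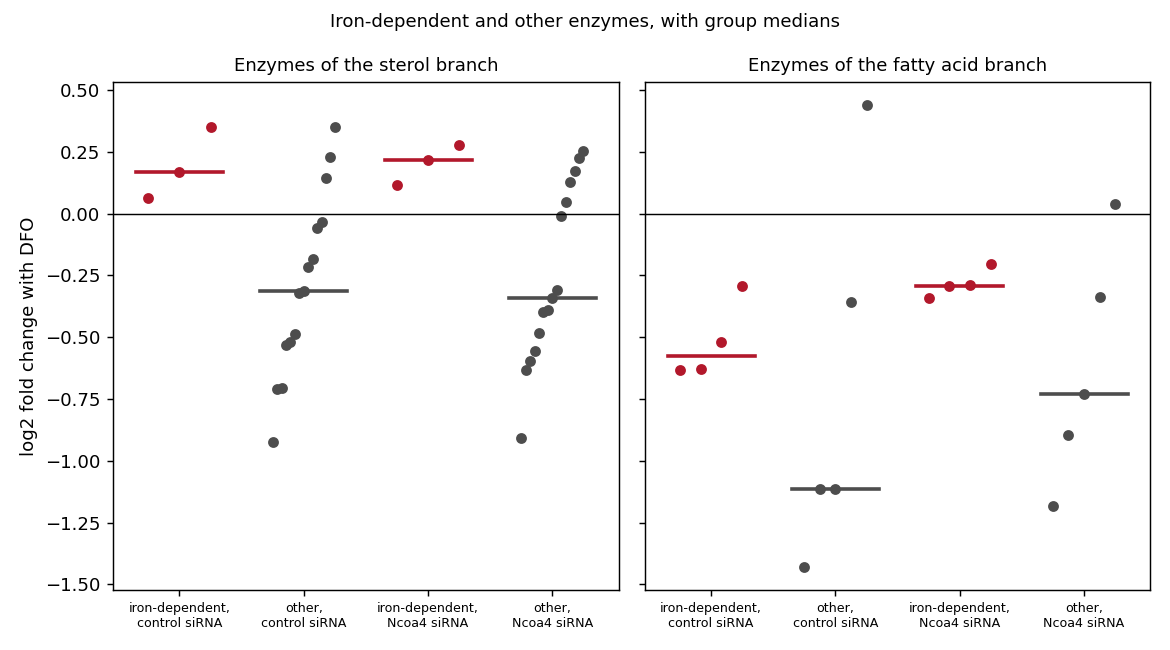
Log2 fold change with DFO (y axis) of iron-dependent (red) and other enzymes (grey), each point 1 gene and each bar the group median, in the sterol branch (left) and the fatty acid branch (right), with control or Ncoa4 siRNA. The iron-dependent sterol enzymes all lie above 0, and the desaturases lie between -0.63 and -0.20.

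The rest of lipid metabolism was followed with lists of further genes, named by the largest change with DFO among those that passed. Their counts are to be read against the 53.4% of all genes that passed in this comparison. Of other sterol and isoprenoid genes 4 rose and 4 fell of 12 tested. Fntb, a farnesyltransferase subunit, changed by 0.58 ± 0.14 on the log2 scale and Dhdds, of dolichol synthesis, by -0.53 ± 0.14 (adjusted p = 0.00497 and 0.00591). Of genes for sterol uptake, efflux and storage 6 rose and 5 fell of 16 tested. Vldlr, a lipoprotein receptor, rose from 3.86 ± 0.728 to 10.3 ± 1.27 FPKM (1.41 ± 0.16), and Soat1, which esterifies cholesterol for storage, from 14.8 ± 2.20 to 32.9 ± 4.07 FPKM (1.15 ± 0.11), while Mylip, the ligase that degrades lipoprotein receptors, fell from 25.9 ± 0.380 to 10.5 ± 1.20 FPKM (-1.30 ± 0.20), with adjusted p = 1.44e-05, 3.51e-06 and 0.000129. Of SREBP processing and sterol sensing genes 3 rose and 1 fell of 12 tested. They included Nfyb, a subunit of the CCAAT-binding factor NF-Y, which rose from 13.1 ± 2.06 to 41.0 ± 4.70 FPKM (1.65 ± 0.14, adjusted p = 1.17e-06), Erlin1 (1.24 ± 0.07, adjusted p = 5.94e-08) and Syvn1 (0.77 ± 0.12, adjusted p = 0.000232), both of the degradation machinery of the endoplasmic reticulum.

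Of other fatty acid and glycerolipid synthesis genes 4 rose and 9 fell of 19 tested, with a median of -0.25. Slc25a1, the mitochondrial citrate exporter that feeds Acly, fell from 36.0 ± 3.09 to 18.3 ± 1.93 FPKM (-0.98 ± 0.15, adjusted p = 0.000129). Lpin1, a phosphatidate phosphatase, rose from 5.63 ± 0.463 to 26.6 ± 1.21 FPKM (2.22 ± 0.14, adjusted p = 8.6e-08), and Dgat2, which makes triglyceride, from 1.68 ± 0.650 to 4.88 ± 1.27 FPKM (1.54 ± 0.46, adjusted p = 0.0136). Of 16 other iron-dependent lipid oxygenases only 4 were high enough to be tested, of which 2 rose and none fell. Fads3, a relative of Fads1 and Fads2, rose from 20.5 ± 1.17 to 50.9 ± 5.06 FPKM (1.30 ± 0.09, adjusted p = 1.67e-07), opposite in sign to both, and Degs1, the dihydroceramide desaturase, from 40.5 ± 1.26 to 63.7 ± 6.84 FPKM (0.65 ± 0.08, adjusted p = 2.38e-05). Of 7 genes tested as checks of the treatments 5 rose with DFO, among them Vegfa (2.11 ± 0.09) and Slc2a1 (2.07 ± 0.12), targets of the hypoxia-inducible factors, whose degradation depends on iron (adjusted p = 7e-09 and 6.37e-08).

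Some values rest on reads that another gene could share. On GRCm38, 33.9% of the 75-base windows of Acat2 transcripts also occurred in Acat3, which was itself at 0.254 to 0.546 FPKM in the group means, and 26.8% of those of Acaca, 23.5% of those of Fdps and 16.7% of those of Idi1 occurred in other loci not analysed here. Scd1 and Scd2 shared 3.15% and 1.78% of their windows. Exons of Fdft1 overlapped those of Ctsb on the opposite strand over 18.3% of their length. Ctsb had 27.5 FPKM in siControl and 29.4 FPKM in siControl+DFO, while Fdft1 fell. In cells with Ncoa4 siRNA Ctsb rose with DFO (log2 fold change 0.43, limma, adjusted p = 0.00383), and Fdft1 fell there too. Scap and Hmgcs1 overlapped opposite-strand genes over 13.2% and 12.1%. On their own strand, Fdps overlapped Gm43738, not analysed here, over 26.7%, and Tm7sf2 overlapped Vps51 over 12.1%. Strand cannot separate these same-strand overlaps. Vps51 fell with DFO in control siRNA cells (log2 fold change -0.56, limma, adjusted p = 0.000544), while Tm7sf2 did not pass. The library kit keeps strand, but whether counting used it is not given in the sources used here, so these values are uncertain to that extent.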

How the data were processed

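Gene levels were taken from 1 table per library, in which the authors deposited FPKM values for 24347 gene entries. The submitters' processing notes list Trimmomatic 0.33, FastQC, HISAT2 2.1.0, featureCounts and edgeR and the build mm10. The tool that made the FPKM, the annotation and the strand setting are not given in the sources used here. The library kit was a strand-specific one for small amounts of total RNA. FPKM keeps no total count, so no counting interval can be given.

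Symbols listed more than once were left out, leaving 24343 genes. A gene was kept where 3 or more of the 12 libraries reached 0.5 FPKM (11924 genes), log2(FPKM + 0.1) was taken without further scaling, and a means model over the 4 groups was estimated in limma 3.58.1 (R 4.3.3) with a mean-variance trend and 8 residual degrees of freedom. Fold changes and their standard errors are on this scale, which understates changes of low genes. Benjamini-Hochberg adjustment covered all genes tested, separately for each of 6 comparisons, and genes were called at an adjusted p below 0.05, and separately with a fold change above 2 as well. An exact two-sided permutation test of 3 libraries against 3 cannot go below p = 0.1 and was not used. All 33 genes are named. Of each further list at most 3 genes are named, those with the largest change for siControl+DFO vs siControl among genes that passed. A gene of these lists is counted but not reported here by name. The 33 genes, the lists and the tests were chosen with earlier results of these data known. Fits were tested on simulated data. Promoters were read from RefSeq tables on GRCm38.p6 and searched on both strands with Python 3.11.15. Figures were drawn with matplotlib 3.10.9. Alternatives were pseudocounts of 1 and 0.01, other filters, median-of-ratios and quantile scaling, fits of only the compared groups, a replicate block, other moderation, and removal of each library.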

Additional observations from a re-analysis of the deposited data

How the results depend on the processing

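No log2 fold change of a called gene changed its sign under any alternative, and the interaction called 0 of the 33 genes by limma in every setting, removals of a library included. With DFO in control siRNA cells the count of 23 stayed at 23 to 24 under the alternatives other than the fold rule and at 18 to 25 on removal of a library, with 17 calls kept throughout. With DFO in Ncoa4 siRNA cells the count of 24 was 21 to 24 and 15 to 25, with 14 calls kept, and for both treatments against siControl the count of 21 was 19 to 21 and 18 to 23, with 17 kept. The calls for Ncoa4 siRNA were less stable: at normal iron, 5 genes became 3 with quantile normalization, 1 without a mean-variance trend, 2 in a fit of the compared groups only and 0 to 5 on removal of a library, and in DFO-treated cells 4 became 7, 2, 1 and 1 to 4. A required fold change above 2 left 0, 3, 1, 0 and 4 genes for siNCOA4, DFO, DFO in siNCOA4, siNCOA4 in DFO and both treatments. The replicate numbers did not pair the libraries: deviations of same-numbered libraries correlated between -0.127 and 0.116, and with the replicate number as a block 2 genes in place of 4 passed for siNCOA4 in DFO, while the other counts stayed within 1.5 times.

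The difference between iron-dependent and other enzymes over both branches was unstable. Its range on removal of a library was -0.143 to -0.00361 for siNCOA4 (-0.0722 with all libraries), -0.00992 to 0.121 for DFO, 0.0646 to 0.196 for DFO in siNCOA4, -0.0176 to 0.109 for siNCOA4 in DFO (0.0141), -0.125 to 0.0460 for both treatments (-0.0547) and 0.0407 to 0.205 for the interaction (0.120). Quantile normalization gave 0.0266 for siNCOA4, 0.122 for both treatments and 0.208 for the interaction. Counting Sqle as iron-dependent gave -0.0850 for DFO. Within the sterol branch it was 0.154, 0.478, 0.557, 0.195 and 0.684 in the order above and -0.0649 for the interaction. Within the fatty acid branch it was -0.0697, 0.540, 0.437, -0.0368 and 0.547 in that order and 0.0422 for the interaction. The cause of these changes was not tested. Without counts, the depth behind single values is unknown, and 3 libraries a group limit what could be detected.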

Other observations

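Genes for the breakdown of fatty acids, which are no part of the 33, moved in the same direction as those for synthesis. With DFO in control siRNA cells, 10 of 13 tested fatty acid oxidation genes fell and 1 rose, with a median log2 fold change of -0.75 (limma, adjusted p below 0.05, against 25.7% of all genes lower). Acadm, the medium-chain acyl-CoA dehydrogenase, fell from 26.5 ± 2.88 to 10.5 ± 1.85 FPKM (-1.34 ± 0.18, adjusted p = 5.11e-05), and Acaa2, the last enzyme of the mitochondrial spiral, from 27.1 ± 1.48 to 11.0 ± 0.992 FPKM (-1.29 ± 0.10, adjusted p = 9.05e-07). Cpt1a, which admits fatty acids to mitochondria, fell from 18.3 ± 2.38 to 7.62 ± 0.586 FPKM (-1.24 ± 0.13, adjusted p = 8.48e-06) and from 16.7 ± 1.25 to 12.1 ± 1.97 FPKM with Ncoa4 siRNA (-0.47 ± 0.13, adjusted p = 0.0127). The interaction of Cpt1a was 0.77 ± 0.19 and did not pass (adjusted p = 0.0585). With Ncoa4 siRNA 8 of the 13 fell with DFO and 1 rose (median -0.54), while Ncoa4 siRNA at normal iron changed 0 of the 13 by limma.

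Of 6 lipid droplet genes tested, 2 rose and 1 fell with DFO, where 53.4% of all genes passed. Hilpda, an inhibitor of triglyceride breakdown, rose from 5.84 ± 1.02 to 26.7 ± 1.54 FPKM (2.19 ± 0.35, adjusted p = 0.000228), and Plin2, a coat protein of lipid droplets, from 45.9 ± 3.82 to 76.8 ± 6.54 FPKM (0.74 ± 0.10, adjusted p = 5.43e-05). Plin3, another coat protein, fell from 24.9 ± 2.23 to 16.4 ± 2.15 FPKM (-0.60 ± 0.11, adjusted p = 0.00059). In cells with Ncoa4 siRNA Hilpda rose with DFO from 3.83 ± 0.482 to 13.8 ± 7.24 FPKM (1.64 ± 0.35, adjusted p = 0.00252), with a wide spread between the siNCOA4+DFO libraries, and Plin2, at 61.0 ± 2.05 and 67.6 ± 8.12 FPKM, did not pass (adjusted p = 0.280).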
